A study of Mus musculus with 8 samples.

Results

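The genes described here are 10 mouse genes of bone mineralization and of the matrix that osteoblasts, the bone-forming cells, lay down. They were the rows of the deposited count table whose symbol was Alpl, Enpp1, Ank, Phospho1, Phex, Spp1, Ibsp, Bglap, Bglap2 or Mgp, 10 of 53465 genes. The count of a gene is the number of sequencing reads assigned to it, and 7 of the 10 had enough counts to enter the comparison across 14369 genes. Phospho1, Phex and Bglap did not.

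RNA-seq had been performed on mesenchymal stem cells (MSCs, stromal cells that can form bone, fat and cartilage) from the bone of wild-type C57BL/6N mice aged 3 to 5 months. Cells were kept at 2% oxygen (hypoxia) or 21% oxygen (normoxia), both with 5% CO2, in control medium without an osteogenic supplement, with 4 samples in each group. Per the methods of the study, cells first grew out of bone fragments at 2% oxygen, were sorted on day 12 as negative for the blood cell markers CD45 and Ter-119 and positive for Sca-1 and CD140a, and were then divided between the oxygen conditions for a further week. The question was how a change of oxygen level alters gene activity in these cells.

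Bone mineral is a calcium phosphate crystal, and its growth depends on the balance between phosphate, which builds it, and pyrophosphate, which blocks it. Enpp1 encodes an ectoenzyme that makes pyrophosphate from extracellular ATP, Ank encodes a membrane protein needed for the release of ATP and pyrophosphate, and Alpl encodes tissue-nonspecific alkaline phosphatase, which cleaves pyrophosphate into phosphate. The matrix proteins then steer the crystals: bone sialoprotein (Ibsp) favours their formation, whereas osteopontin (Spp1) and matrix Gla protein (Mgp) restrain them, and osteocalcin (Bglap, Bglap2) binds to the finished mineral.

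Total counts were 25132141 in hypoxia replicate 1 and between 12898291 and 13433824 in the other 7 samples. Values below are library-scaled counts (CPM). The lowest level treated as detectable, 3 counts, was 0.119 to 0.233 CPM depending on the sample. This limit covers counting error only. Of 8 genes known to be induced by hypoxia-inducible factor, 7 were lower in normoxia, among them Car9 with a log2 change of -2.34 ± 0.16 (SE, adjusted p = 1e-05, limma-trend).

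Spp1 and Enpp1 rose in normoxia-cultured MSCs and Alpl fell, by 1.45-fold, 1.34-fold and 1.39-fold, respectively. Ibsp was lower and Mgp higher in normoxia in 4 of 4 same-numbered pairs of samples, but these differences did not pass the test unless the pairs were taken into account or, as given below, certain samples or settings were changed. Ank and Bglap2 did not pass it with or without the pairs. Thus 3 of the 7 tested genes changed (limma-trend, adjusted p under 0.05), against 34.6% of all 14369 tested genes, of which 18.0% were higher and 16.5% lower in normoxia. With the replicate number as a block the count was 5 of 7, 3 up and 2 down, against 46.0% of all genes, 23.3% up and 22.7% down. In 4 of 4 pairs the level moved the same way for 5 of the 7, against 54.5% of all genes. The median log2 change of the 7 genes was -0.01, and that of all tested genes was 0.0049. The share without the block is close to that of the transcriptome as a whole, the difference between the shares with the block was not tested, and the direction differed from gene to gene. Hypoxia and normoxia samples were fully separated for 2 of the 7, Spp1 and Alpl, against 32.6% of all tested genes, 17.1% with normoxia higher and 15.5% with normoxia lower.

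**Figure D1:**
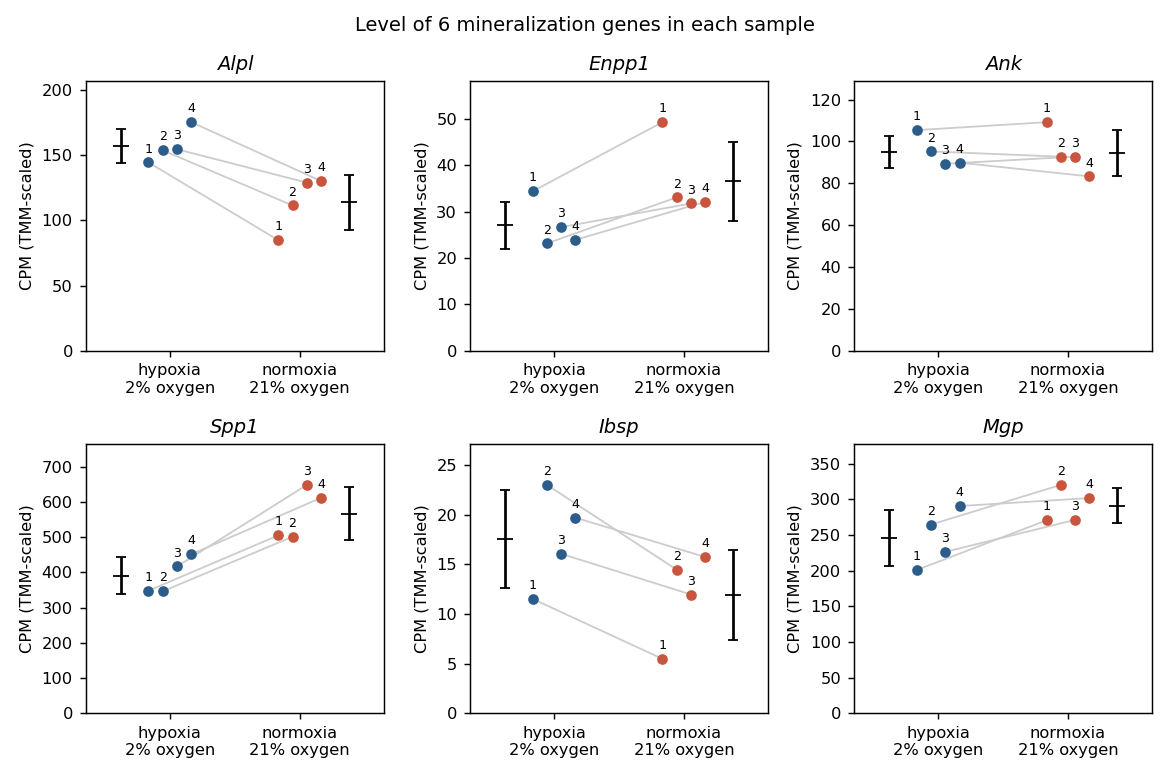
CPM of Alpl, Enpp1, Ank, Spp1, Ibsp and Mgp in each of the 4 hypoxia and 4 normoxia samples, with replicate numbers beside the points, grey lines between samples of the same number, and the mean ± SD at the side of each group. For Alpl the normoxia points (84.8 to 130.1 CPM) all lie below the hypoxia points (144.4 to 175.3 CPM), and for Spp1 they all lie above them.

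Alpl (ENSMUSG00000028766, GRCm38 chr4:137741733-137796384, minus strand) is the enzyme that removes pyrophosphate. Its level was 144.4, 153.7, 154.5 and 175.3 CPM in hypoxia replicates 1 to 4 and 84.8, 111.4, 128.9 and 130.1 CPM in normoxia replicates 1 to 4. Every normoxia sample was below every hypoxia sample. The means were 157.0 ± 13.0 and 113.8 ± 21.1 CPM (SD, n = 4 each), and the log2 change was -0.48 ± 0.12 (SE, adjusted p = 0.0083, limma-trend). Alpl stayed past the threshold whichever sample was left out, with log2 changes between -0.56 and -0.36. These are bulk samples, so that fewer cells with Alpl and less Alpl RNA per cell cannot be told apart. The transcripts of Alpl have a GC content of 56.5%, against a median of 49.7% for tested genes, and after removal of the dependence on GC content and length in each sample the log2 change was -0.33 ± 0.11 (SE, adjusted p = 0.039, limma-trend).

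Enpp1 (ENSMUSG00000037370, GRCm38 chr10:24637914-24712159, minus strand), the source of extracellular pyrophosphate, moved the other way. Hypoxia replicates 1 to 4 had 34.4, 23.2, 26.7 and 23.9 CPM, and normoxia replicates 1 to 4 had 49.3, 33.1, 31.8 and 32.2 CPM. The samples numbered 1 were the highest of their groups, and hypoxia replicate 1 lay above 3 of the 4 normoxia samples, so that the groups overlapped. Normoxia was higher in 4 of 4 pairs, by 0.25 to 0.52 on the log2 scale. The log2 change was 0.43 ± 0.15 (SE, adjusted p = 0.047, limma-trend). This call was narrow: it was lost when any sample other than hypoxia replicate 1 was left out (adjusted p between 0.052 and 0.13, limma-trend), and without normoxia replicate 1 the log2 change was 0.26. With the correction for GC content and length it was 0.30 ± 0.16 (SE, adjusted p = 0.17, limma-trend), and with the replicate block as well the adjusted p was 0.0009.

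The counts of these opposed enzymes can be set against each other within each sample, where depth and scaling cancel. Effects of GC content and length need not cancel, since the GC content is 56.5% for Alpl and 45.8% for Enpp1. The ratio was not corrected for them. Alpl counts divided by Enpp1 counts were 4.2, 6.63, 5.79 and 7.32 in hypoxia replicates 1 to 4, and 1.72, 3.37, 4.05 and 4.05 in normoxia replicates 1 to 4. The ratio was lower in every normoxia sample than in any hypoxia sample, although the lowest hypoxia value, 4.2 in replicate 1, lay close to the highest normoxia values. This ratio was chosen after the values of both genes had been seen and was not tested.

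Ank (ENSMUSG00000022265, GRCm38 chr15:27466677-27594909, plus strand) had 105.4, 95.2, 89.3 and 89.9 CPM in hypoxia and 109.2, 92.7, 92.7 and 83.3 CPM in normoxia. The groups overlapped over nearly their whole ranges, and 2 pairs were higher and 2 lower in normoxia. Its log2 change was -0.01 ± 0.08 (SE, adjusted p = 0.94, limma-trend). Otulin, with 280 to 540 counts per sample, overlaps Ank on the opposite strand, and reads of the overlap cannot be told apart unless the counting used strand, which is not given in the sources used here.

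The remaining genes of phosphate metabolism among the 10 were barely detected. Phospho1 (ENSMUSG00000050860, GRCm38 chr11:95824499-95832140, plus strand) encodes a phosphatase that frees phosphate inside matrix vesicles, the particles in which mineral first forms. It had 4, 2, 1 and 5 counts in hypoxia and 0, 3, 0 and 0 counts in normoxia. The difference in CPM was not significant (two-sided exact permutation test, p = 0.114), and the counts are uncertain because the annotated span of Phospho1 overlaps that of Zfp652 on the same strand, which had 564 to 1317 counts, and that of Abi3 on the opposite strand, which had 1 to 15. Phex (ENSMUSG00000057457, GRCm38 chrX:157162075-157415312, minus strand), a membrane endopeptidase of bone cells whose loss causes phosphate wasting, had 2 to 12 counts in hypoxia and 2 to 6 in normoxia (two-sided exact permutation test of CPM, p = 0.657). No difference was detected in either gene.

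The 250 bases upstream of the RefSeq transcript start are shown for the 3 genes that changed, since these are the sequences nearest to the start of each message (RefSeq, GRCm38.p6, written 5′ to 3′ on the strand of the gene). RefSeq promoter entries were found for 8 of the 10 genes, not for Bglap2 and Mgp. Capitals mark matches, on either strand, to AACCACA (bound by Runx factors, which direct osteoblast formation), to ACGTG or GCGTG (the core bound by hypoxia-inducible factors) and to TATAAA (the TATA box). The windows lie at chr4:137796385-137796634 for Alpl and chr10:24712160-24712409 for Enpp1, both on the minus strand, and at chr5:104434861-104435110 on the plus strand for Spp1.
Alpl: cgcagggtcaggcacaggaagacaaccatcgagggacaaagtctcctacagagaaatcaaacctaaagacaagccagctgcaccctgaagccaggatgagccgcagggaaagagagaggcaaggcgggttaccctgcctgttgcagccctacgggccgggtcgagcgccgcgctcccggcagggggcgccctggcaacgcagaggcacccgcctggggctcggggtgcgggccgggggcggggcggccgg
Enpp1: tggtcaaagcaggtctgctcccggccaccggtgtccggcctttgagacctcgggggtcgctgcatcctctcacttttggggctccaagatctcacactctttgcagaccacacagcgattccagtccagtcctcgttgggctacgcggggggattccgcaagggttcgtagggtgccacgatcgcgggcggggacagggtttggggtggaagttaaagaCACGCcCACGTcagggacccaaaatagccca
Spp1: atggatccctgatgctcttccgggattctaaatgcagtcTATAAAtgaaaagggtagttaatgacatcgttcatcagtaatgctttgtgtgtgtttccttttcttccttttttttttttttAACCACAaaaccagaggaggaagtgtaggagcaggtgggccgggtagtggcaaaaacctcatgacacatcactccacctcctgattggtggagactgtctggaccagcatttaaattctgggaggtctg

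The Alpl window held none of these motifs. The Enpp1 window held the reverse complement of GCGTG, which begins 31 bases before the start, and that of ACGTG, which begins 25 bases before it. The Spp1 window held AACCACA from 129 bases before the start and TATAAA from 211 bases before it. Among 32851 RefSeq promoter windows of the same length, 4.4% held AACCACA, 16.6% ACGTG, 28.2% GCGTG and 12.4% TATAAA. The windows of Ank and Phex held none of the motifs either, that of Phospho1 held several copies of ACGTG and GCGTG, which partly overlap, and those of Ibsp and Bglap each held a single match to TATAAA, 28 and 27 bases before the start, on the opposite strand in Ibsp. A further motif, the homeobox site TAATTA, was found in 4.84% of all windows and in none of the 8.

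Among the secreted matrix proteins, Spp1 (ENSMUSG00000029304, GRCm38 chr5:104435118-104441050, plus strand) had the most counts. It encodes osteopontin, an acidic phosphoprotein that binds to mineral and, through integrins and CD44, to cells. Spp1 was at 348.0, 346.2, 416.7 and 451.2 CPM in hypoxia replicates 1 to 4, and at 505.0, 501.3, 648.1 and 611.6 CPM in normoxia replicates 1 to 4. All 4 normoxia samples were above all 4 hypoxia samples, and replicates 3 and 4 were the higher ones in both groups. The means were 390.5 ± 52.1 and 566.5 ± 74.7 CPM (SD, n = 4 each). The log2 change was 0.54 ± 0.11 (SE, adjusted p = 0.0024, limma-trend), between 0.46 and 0.61 when single samples were left out, and 0.42 ± 0.10 (SE, adjusted p = 0.011, limma-trend) with the correction for GC content and length.

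Macrophages also make osteopontin, and although the sort removed CD45-positive cells, all 8 macrophage markers examined were detected. Their summed level was 496.0 to 981.7 CPM in hypoxia and 604.0 to 1131 CPM in normoxia and was higher in normoxia in each pair. Of the 8 markers, Lyz2 rose (log2 change 0.56 ± 0.17, SE, adjusted p = 0.022, limma-trend), a call lost without normoxia replicate 3 or 4 (adjusted p = 0.067 and 0.056, limma-trend). The other 7 did not pass without the block, and 6 of them had negative values, among them Csf1r at -0.59 ± 0.26 (SE, adjusted p = 0.10, limma-trend). With the replicate block Lyz2 was higher and Csf1r, Itgam, Tyrobp and Cd68 were lower in normoxia (adjusted p = 6.7e-09, 0.0011, 0.002 and 0.0028 for the lower ones, limma-trend). Lyz2 had the highest mean level of the 8 markers in both groups, at 353.3 ± 73.2 CPM in hypoxia and 522.8 ± 125.1 CPM in normoxia (SD, n = 4 each). The part of macrophage RNA in the change of Spp1 was not tested. Ptprc, which encodes CD45 itself, had 140 to 263 counts per sample and did not pass the test (log2 change 0.08, adjusted p = 0.81, limma-trend).

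**Figure D2:**
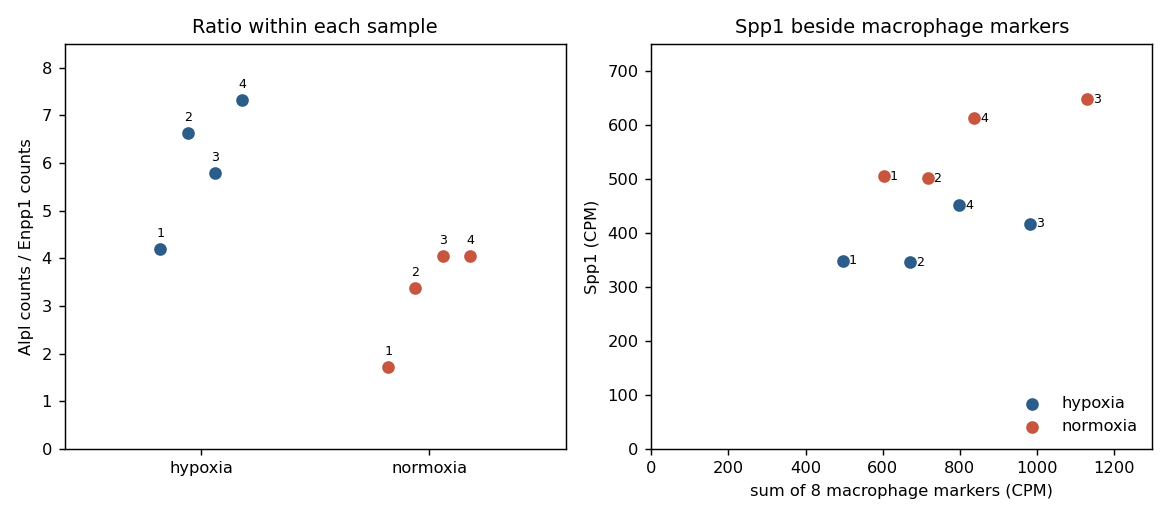
Left, Alpl counts divided by Enpp1 counts in each sample, with replicate numbers: 4.2 to 7.32 in hypoxia and 1.72 to 4.05 in normoxia. Right, Spp1 against the summed CPM of 8 macrophage markers per sample, where the marker sums of the groups overlap (496.0 to 981.7 and 604.0 to 1131 CPM) and the Spp1 levels do not.

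Ibsp (ENSMUSG00000029306, GRCm38 chr5:104299171-104311469, plus strand), a marker of osteoblasts that have begun to form mineral, was at 11.5, 23.0, 16.1 and 19.7 CPM in hypoxia and 5.49, 14.5, 12.0 and 15.7 CPM in normoxia. The groups overlapped because hypoxia replicate 1 was low, but both samples numbered 1 were the lowest of their groups and each normoxia sample was below its partner, by 0.32 to 1.04 on the log2 scale. Without the pairing the log2 change was -0.61 ± 0.29 (SE, adjusted p = 0.13, limma-trend). With the replicate block it was -0.61 ± 0.11 (SE, adjusted p = 6.5e-05, limma-trend). Leaving out hypoxia replicate 1 gave -0.79 (adjusted p = 0.04, limma-trend), and leaving out normoxia replicate 1 gave -0.29 (adjusted p = 0.29, limma-trend).

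Mgp (ENSMUSG00000030218, GRCm38 chr6:136872435-136875823, minus strand), a vitamin K-dependent inhibitor of calcification in cartilage and vessels, was at 201.1, 264.8, 226.5 and 290.7 CPM in hypoxia and 270.7, 320.4, 271.4 and 301.9 CPM in normoxia. Hypoxia replicate 4 lay above normoxia replicates 1 and 3, so that the groups overlapped, while each normoxia sample exceeded its partner. The log2 change was 0.25 ± 0.10 (SE, adjusted p = 0.076, limma-trend), and with the replicate block the SE was 0.05 (adjusted p = 0.00048, limma-trend). Without the block, 1 of the 8 fits that left out a sample passed, that without hypoxia replicate 4 (log2 change 0.34, adjusted p = 0.023, limma-trend). Without hypoxia replicate 1 the log2 change was 0.16 (adjusted p = 0.16, limma-trend), and the adjusted p reached 0.22 without normoxia replicate 2. Mgp also passed with the correction for GC content and length (0.34, adjusted p = 0.036, limma-trend) and with scaling to library size only (0.34, adjusted p = 0.028, limma-trend).

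Osteocalcin, the most bone-specific of these proteins, is encoded in the mouse by neighbouring copies on chromosome 3, Bglap (ENSMUSG00000074483, GRCm38 chr3:88383501-88384464) and Bglap2 (ENSMUSG00000074486, chr3:88377736-88378699), both on the minus strand. A further copy, Bglap3 (ENSMUSG00000074489, chr3:88368616-88372743), which is not 1 of the 10 genes, had 0 counts in every sample. The coding sequences of Bglap and Bglap2 in GENCODE M21 are printed below because their likeness limits what the counts can show. They differ at 4 of 285 bases (98.6% identity), which are in capitals.
Bglap: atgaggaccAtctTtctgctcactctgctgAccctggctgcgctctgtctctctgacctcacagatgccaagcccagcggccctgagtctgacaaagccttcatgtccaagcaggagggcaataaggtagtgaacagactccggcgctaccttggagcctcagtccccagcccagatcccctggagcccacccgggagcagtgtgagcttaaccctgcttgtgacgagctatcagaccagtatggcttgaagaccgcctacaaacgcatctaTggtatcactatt
Bglap2: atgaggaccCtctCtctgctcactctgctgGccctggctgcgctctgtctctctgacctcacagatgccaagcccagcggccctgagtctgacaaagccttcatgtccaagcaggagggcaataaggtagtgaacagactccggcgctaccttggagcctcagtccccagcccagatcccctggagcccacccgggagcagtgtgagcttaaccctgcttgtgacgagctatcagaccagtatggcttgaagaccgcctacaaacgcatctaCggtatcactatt

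Of all stretches of 50 bases in the Bglap transcript, 74.7% also occur in that of Bglap2, and of stretches of 100 bases 56.3% do, so that a read within such a stretch cannot be assigned to 1 copy. Per the methods of the study the reads were longer than these stretches, and the shared part at their full length was not measured. Bglap had 16, 8, 5 and 4 counts in hypoxia and 3, 3, 4 and 2 counts in normoxia. In CPM every hypoxia sample lay above every normoxia sample (0.502 ± 0.18 and 0.219 ± 0.056, SD, n = 4 each, two-sided exact permutation test, p = 0.0286, the smallest value 70 assignments allow), but 3 of the 4 normoxia samples were at or under 3 counts. That p was not adjusted for the number of genes, and limma-trend with no filter gave Bglap an adjusted p of 0.096. Bglap2 had 20, 11, 22 and 20 counts in hypoxia and 17, 11, 18 and 8 counts in normoxia. Its log2 change was -0.27 ± 0.29 (SE, adjusted p = 0.51, limma-trend). With both copies summed, hypoxia had 1.75 ± 0.29 CPM and normoxia 1.21 ± 0.39 CPM (SD, n = 4 each), the ranges overlapped, and the difference was not significant (two-sided exact permutation test, p = 0.114).

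Levels of different genes were compared per kilobase of annotated exon. Per kilobase, Spp1 was highest in both groups, with 237 ± 31.6 CPM in hypoxia and 344 ± 45.3 CPM in normoxia (SD, n = 4 each), followed by Mgp with 207 ± 33.5 and 245 ± 20.5 CPM. The ranges of these genes overlapped in hypoxia (210 to 274 and 169 to 245 CPM) and were apart in normoxia (304 to 393 and 228 to 270 CPM). Alpl followed with 38.9 ± 3.23 CPM per kilobase in hypoxia, apart from Ank with 26.3 ± 2.06, whereas in normoxia Alpl (21.0 to 32.3) and Ank (23.1 to 30.3) covered the same range.

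Below these lay Ibsp with 8.5 ± 2.38 CPM per kilobase in hypoxia and 5.76 ± 2.21 in normoxia. Enpp1 (2.64 ± 0.50 and 3.57 ± 0.83) and Bglap2 (2.64 ± 0.96 and 2.1 ± 0.73) overlapped in hypoxia and not in normoxia, where Enpp1 overlapped Ibsp instead. Bglap was at 0.812 ± 0.29 and 0.355 ± 0.091 CPM per kilobase. Phospho1 and Phex were the lowest and overlapped each other in both groups, with at most 0.19 CPM per kilobase in any sample. The merged exons of Enpp1 span 10.26 kb, and a level per kilobase is too low where long annotated exons are not used.

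**Figure D3:**
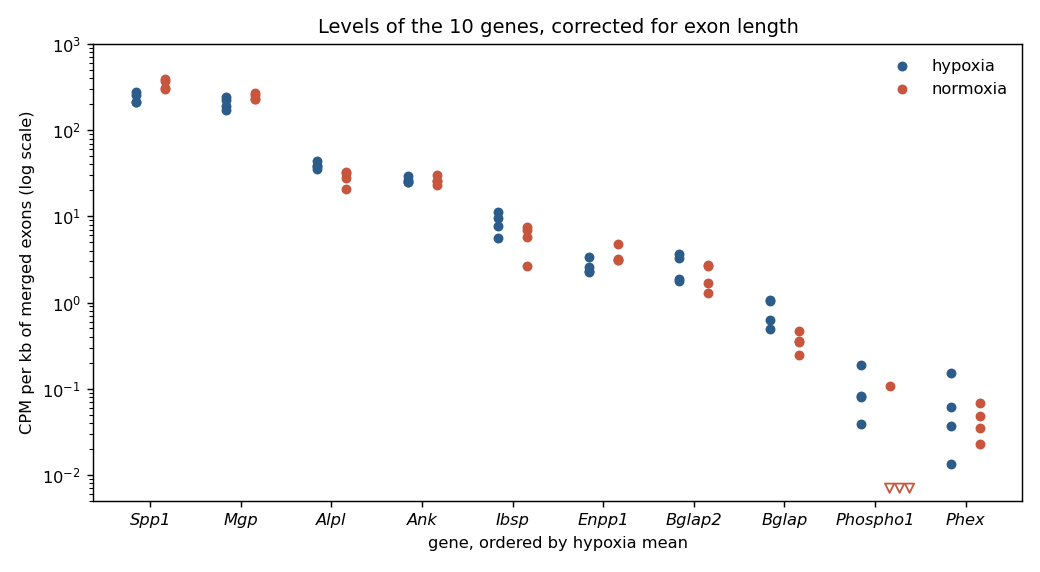
CPM per kilobase of merged exons (log scale) of the 10 genes in every sample, hypoxia in blue and normoxia in red, ordered by the hypoxia mean, with open triangles at the lower edge for samples with 0 counts. Spp1 and Mgp lie above 160 CPM per kilobase in every sample, and Phospho1 and Phex lie at or below 0.19.

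Ibsp and Spp1 are close neighbours in a cluster of genes for acidic bone matrix proteins on chromosome 5, where the end of Ibsp and the start of Spp1 are 124 kb apart on the same strand. Mepe, which lies between them, and Dspp had 0 counts in every sample, and Dmp1 had 0 to 8. Spp1 counts divided by Ibsp counts were 30.2, 15, 25.9 and 22.9 in hypoxia replicates 1 to 4 and 92.0, 34.7, 54.1 and 38.9 in normoxia replicates 1 to 4, so that the ratio was higher in every normoxia sample. The ratio and the neighbours named next were chosen after their values were seen. Downstream of Spp1, Pkd2 (log2 change 0.19, adjusted p = 0.04), BC005561 (0.92, adjusted p = 0.0061) and D930016D06Rik (1.00, adjusted p = 0.0093) were higher in normoxia with limma-trend, BC005561 on 13 to 52 counts and D930016D06Rik on 7 to 32. Nudt9, on the far side of the cluster, did not pass the test (0.14, adjusted p = 0.15, limma-trend).

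The other genes of the pathway were taken as 7 lists with 48 genes, of which 39 were tested. Of these, 7 rose and 8 fell in normoxia, 15 of 39 against 34.6% of all tested genes, and their median log2 change was -0.07. With the replicate block 11 rose and 16 fell, 27 of 39 against 46.0% of all tested genes, and the difference between these shares was not tested.

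Phosphate and pyrophosphate handling had 7 tested genes, of which 2 rose and 5 did not pass (median log2 change 0.09). Slc20a1, a sodium-dependent phosphate transporter, went from 29.7 ± 6.63 to 47.7 ± 9.86 CPM (SD, n = 4 each, log2 change 0.68 ± 0.16, SE, adjusted p = 0.0067, limma-trend). Nt5e, the ectoenzyme CD73 that takes the AMP left by Enpp1 on to adenosine and phosphate, rose from 10.5 ± 0.49 to 16.0 ± 2.34 CPM with no overlap (log2 change 0.58 ± 0.12, SE, adjusted p = 0.0024, limma-trend). Smpd3, a sphingomyelinase needed for normal mineralization, was at -0.27 (adjusted p = 0.057, limma-trend) and the pyrophosphatase Ppa1 at 0.29 (adjusted p = 0.10, limma-trend). Both passed with the replicate block (adjusted p = 0.025 and 0.0026, limma-trend). Neither did when GC content and length were corrected as well (adjusted p = 0.17 and 0.065, limma-trend).

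Of 7 tested genes for collagen I and bone matrix proteins, 1 fell and 6 did not pass (median log2 change -0.34). Col1a1, the main chain of the collagen that becomes mineralized, fell from 53010 ± 3844 to 31780 ± 1183 CPM (SD, n = 4 each), a log2 change of -0.74 ± 0.16 (SE, adjusted p = 0.0038, limma-trend). Its partner chain Col1a2 was at -0.34 ± 0.14 (SE, adjusted p = 0.078, limma-trend), although its groups did not overlap. Col1a2 did pass with edgeR (adjusted p = 0.0032), DESeq2 (4.1e-08) and limma-voom (0.0014). It did not pass with the correction for GC content and length (-0.23, adjusted p = 0.20, limma-trend). Omd, a keratan sulfate proteoglycan of bone, was at -0.43 (adjusted p = 0.066) and the kinase Fam20c, which phosphorylates osteopontin and bone sialoprotein, at -0.21 (adjusted p = 0.081, both limma-trend). With the replicate block 4 of the 7 genes fell, Col1a1, Col1a2, Omd and Fam20c. With the correction for GC content and length and no block, Omd passed (-0.64, adjusted p = 0.01, limma-trend). Fam20c was then at -0.06 and did not pass (adjusted p = 0.58, and 0.52 with the block as well, limma-trend).

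Annexins are calcium-binding proteins of matrix vesicles. Of the 3 tested, Anxa6 fell (log2 change -0.33 ± 0.07, SE, adjusted p = 0.0042, limma-trend), whereas Anxa2 (0.15, adjusted p = 0.12) and Anxa5 (-0.04, adjusted p = 0.70) did not pass, and Anxa2 did with the replicate block (adjusted p = 0.011, limma-trend). Mgp and osteocalcin need carboxylation by the vitamin K cycle, and of 6 genes for that cycle and other Gla proteins 1 fell. This was Ggcx, the carboxylase itself, from 104.8 ± 3.71 to 78.7 ± 0.74 CPM (SD, n = 4 each, log2 change -0.41 ± 0.05, SE, adjusted p = 0.00019, limma-trend). Pros1 (0.16, adjusted p = 0.092), Ucma (-0.79, adjusted p = 0.10) and Vkorc1l1 (-0.07, adjusted p = 0.41) did not pass with limma-trend. Pros1 and Ucma passed with the replicate block (adjusted p = 0.01 and 0.025, limma-trend). Neither passed with the block and the correction for GC content and length together (adjusted p = 0.75 and 0.061, limma-trend), where Pros1 was at -0.02. Vkorc1l1 did pass with that correction (-0.25, adjusted p = 0.0068, and 0.0012 with the block as well, limma-trend).

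A further list held genes of the hormones that set phosphate and of osteocytes, the cells embedded in bone. Among them Fgf23 had 0 to 3 counts, Kl had 0 to 1, and Sost and Cyp24a1 had 0 counts in every sample. Of the 8 genes 4 were tested, and 3 rose (median log2 change 0.76). Vdr, the vitamin D receptor, went from 25.6 ± 5.8 to 66.4 ± 16.4 CPM (SD, n = 4 each, log2 change 1.36 ± 0.18, SE, adjusted p = 0.00028, limma-trend). Galnt3, which protects FGF23 from cleavage, rose by 0.95 ± 0.23 (SE, adjusted p = 0.0079, limma-trend). Pdpn, an early osteocyte marker also made by many stromal cells, was at 0.57 ± 0.18 (SE, adjusted p = 0.027, limma-trend), a call lost without hypoxia replicate 2, 3 or 4 or normoxia replicate 1 or 2 (adjusted p between 0.059 and 0.088, limma-trend). Fgfr1, a receptor of FGF23, was at -0.12 (adjusted p = 0.16, and 0.045 with the replicate block, limma-trend).

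Receptors that bind osteopontin or bone sialoprotein changed in both directions, 2 of 6 up and 2 down (median log2 change -0.03). Itgb1 rose by 0.44 ± 0.07 (SE, adjusted p = 0.001, limma-trend) and Cd44 by 0.72 ± 0.19 (SE, adjusted p = 0.013, limma-trend). The chains of the integrin that binds osteopontin most typically both fell, Itgav by 0.32 on the log2 scale (adjusted p = 0.0021, limma-trend) and Itgb3 by 0.70 (adjusted p = 0.0044, limma-trend).

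Of 6 osteoblast transcription factors 3 fell and 3 did not pass (median log2 change -0.32). With the correction for GC content and length 2 fell and 1 rose, Atf4 (log2 change 0.25, adjusted p = 0.014, limma-trend). With the replicate block as well, 2 fell and 2 rose. Sp7, which is required for osteoblast formation, fell from 34.97 ± 5.14 to 19.8 ± 1.01 CPM (SD, n = 4 each, log2 change -0.80 ± 0.10, SE, adjusted p = 0.00021, limma-trend). Runx2, which acts before Sp7, fell from 56.2 ± 4.22 to 43.9 ± 1.16 CPM (log2 change -0.35 ± 0.07, SE, adjusted p = 0.0018, limma-trend). Dlx3 also fell (log2 change -0.74, adjusted p = 0.037, limma-trend), a call lost without hypoxia replicate 1, 3 or 4 or normoxia replicate 3 or 4 (adjusted p between 0.054 and 0.11, limma-trend). It was also lost with the correction for GC content and length (log2 change -0.59, adjusted p = 0.096, limma-trend). Msx2, a homeobox factor of the skeleton, was at 0.82 ± 0.31 (SE, adjusted p = 0.057, and 0.0032 with the replicate block, limma-trend), and at 1.10 without hypoxia replicate 1 (adjusted p = 0.0053, limma-trend).

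**Figure D4:**
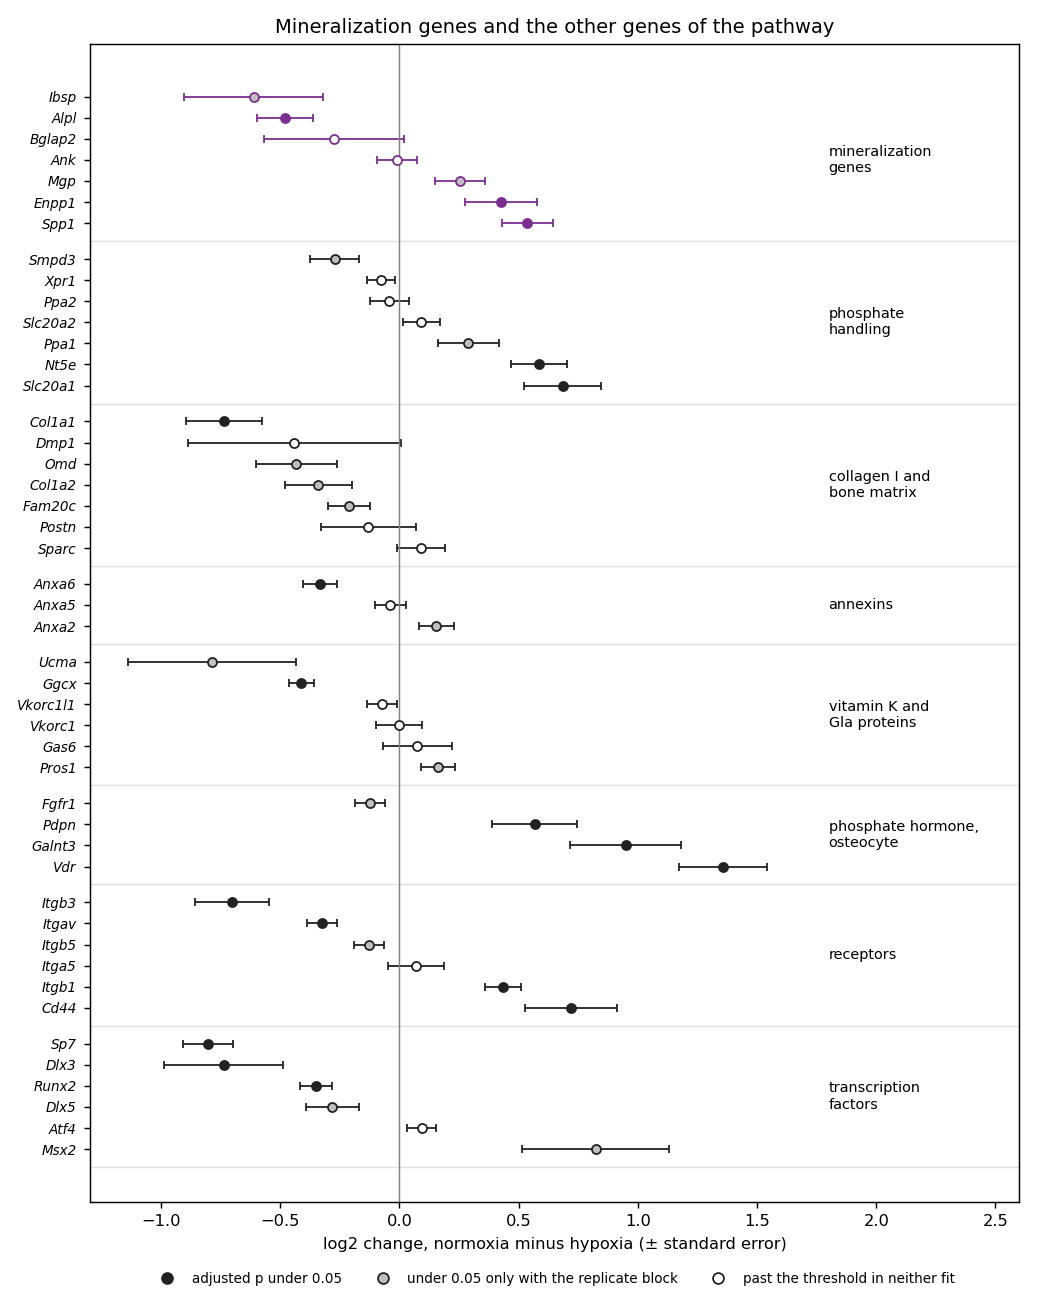
Log2 change (normoxia minus hypoxia, ± SE) of the 7 tested mineralization genes in purple and of 39 tested genes of 7 pathway lists in black, filled where the adjusted p was under 0.05, grey where it was so only with the replicate block, and open otherwise. The 7 mineralization genes spread from -0.61 (Ibsp) to 0.54 (Spp1), and 3 of the 6 transcription factors are filled on the negative side.

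Markers of other cells that bone tissue can hold were examined beside these results. The 6 stromal markers were all detected, with sums of 8768 to 10170 CPM in hypoxia and 9253 to 11340 CPM in normoxia. Most of this was Col3a1, at 7782 ± 476.1 and 9069 ± 909.7 CPM (SD, n = 4 each). Eng fell (log2 change -0.27, adjusted p = 0.043, limma-trend), a call lost in 6 of the 8 fits that left out a sample, all but those without hypoxia replicate 1 or normoxia replicate 4 (adjusted p between 0.068 and 0.12, limma-trend). It was also lost with the correction for GC content and length (log2 change -0.12, adjusted p = 0.32, limma-trend). With the replicate block Pdgfra and Col3a1 were higher and Ly6a, Thy1, Eng and Pdgfrb lower in normoxia. Summed levels of 7 chondrocyte markers were 4904 to 6648 CPM in hypoxia and 4000 to 4780 CPM in normoxia with no overlap. Most of this sum was Comp, at 4443 ± 883.4 and 3465 ± 415.6 CPM (SD, n = 4 each), whose own groups overlapped. Comp was at -0.35 (adjusted p = 0.060, and 3.5e-05 with the replicate block, limma-trend). Acan was at 0.29 (adjusted p = 0.52, limma-trend). Sox9 and Col2a1 fell (log2 changes -0.58 and -0.33) and Col10a1, a marker of hypertrophic cartilage cells, which also express Alpl, rose (log2 change 1.68 ± 0.21, SE, adjusted p = 0.00017, limma-trend). The Col2a1 call was lost without hypoxia replicate 3 or 4 or normoxia replicate 2 (adjusted p between 0.057 and 0.069, limma-trend). It was also lost with the correction for GC content and length (log2 change -0.13, adjusted p = 0.42, and 0.017 with the replicate block as well, limma-trend).

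The 5 smooth muscle and pericyte markers also summed to less in normoxia (3095 to 4238 against 2340 to 2737 CPM). Most of this sum was Acta2, at 3322 ± 463.5 and 2355 ± 166.6 CPM (SD, n = 4 each). Of the 5 markers 4 fell, and 2 did so with the correction for GC content and length. Rgs5 went the other way, at 0.71 (adjusted p = 0.056, and 0.0041 with the replicate block, limma-trend). Osteoclast markers summed to 127.4 to 135.2 CPM in hypoxia and 168.8 to 186.6 CPM in normoxia. Nearly all of this was Ctsk, while Acp5, another osteoclast marker, had 4 to 25 counts and was lower in normoxia, and Calcr, the calcitonin receptor, had 0 counts in every sample. Adipocyte marker sums overlapped (29.6 to 58.8 and 45.4 to 103.2 CPM), and those of 5 endothelial markers were at most 2.65 CPM in any sample, with Emcn at 0 counts. The part of these cell types in the changes of the mineralization genes was not tested.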

How the data were processed

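RNA-seq had been performed on 4 hypoxia- and 4 normoxia-cultured samples, described in the methods of the study as biologically independent. The authors deposited raw counts per Ensembl gene on mm10 (GRCm38). Whether the counting used strand or reads with several matches is not given in the sources used here. Symbols, positions and merged exon lengths came from GENCODE M21.

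Following the study, filterByExpr (minimum count 5) retained 14369 genes with 99.9% of the counts. TMM-scaled log2 CPM (prior count 3; edgeR 4.0.16) were compared with limma-trend (limma 3.58.1, R 4.3.3), Benjamini-Hochberg adjustment over all tested genes and a threshold of 0.05. Changes are normoxia minus hypoxia, on a scale that understates changes of genes with few counts. For genes under the filter, CPM were compared with exact two-sided permutation tests (SciPy 1.17.1). The edgeR quasi-likelihood test, DESeq2 1.42.0, limma-voom, other scalings, filters and prior counts, a replicate block, a spline correction for GC content and length (5 degrees of freedom each) and leaving out each sample were alternatives. The procedures were tested on simulated data.

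Both groups carry replicate numbers 1 to 4, and the study divided sorted cells between the conditions. Deviations from the group means correlated within all same-numbered pairs (r = 0.474, 0.275, 0.249 and 0.172 across genes), so the numbers were taken to pair the samples. Samples with different numbers were not set against each other, so their correlations are not known. The sample titles do not say that equal numbers share a source of cells. Results with the replicate block rest on this assumption. Replicates of a group were not copies of the same counts.

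The 10 genes and the lists were chosen with earlier results of these data known. Besides the 10 genes and those overlapping them, the up to 4 tested genes of each pathway list with the lowest adjusted p are named. Other genes were named after their values were seen. 1 gene was removed from the lists and is not reported here. No sample was left out.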

Additional observations from a re-analysis of the deposited data

Results flagged for a closer look

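In 36 sets of 4 values, 1 sample stood apart from the other 3 of its group in 4 (its gap to the nearest passed the 95% critical value of Dixon's test), where chance gives about 1.8. Hypoxia replicate 1 had 25132141 counts, against 12929564 to 13219647 in the other hypoxia samples. The same sample had the lowest summed level of adipocyte markers, 29.6 CPM against 57.1 to 58.8 CPM. Enpp1 was at 49.3 CPM in normoxia replicate 1 and at 31.8 to 33.1 CPM in the other normoxia samples. Phospho1 was at 0.216 CPM, from 3 counts, in normoxia replicate 2 and had 0 counts in the other normoxia samples. Beside samples that all have 0 counts, any count stands apart by this rule, so the Phospho1 set cannot be weighed against chance.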

How the results depend on the processing

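Of the 7 tested genes 3 changed. With the replicate block, which pairs same-numbered samples, 5 changed, and again 5 when GC and length were corrected too, and between 2 and 4 with every other alternative tried, including those that left out 1 sample. Of the 39 pathway genes 15 changed, and 27 did so with the block alone and 25 when GC and length were corrected too. Over all tested genes the calls also went up, from 4970 to 6610 with the block and to 6202 with block and correction. The block changed no other call among the 7 genes than those of Ibsp and Mgp. Alpl and Spp1 kept their direction and their side of the threshold under every alternative. Enpp1 also missed the threshold with edgeR (adjusted p = 0.056), limma-voom (0.077), RLE factors (0.053) and no filter (0.069). The cause was not tested.

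The sign of Ank turned with library size scaling only (0.078), with the GC and length correction (0.0044, also with the block) and without hypoxia replicate 1 or normoxia replicate 4 (leave-one-out range -0.10 to 0.04). Bglap2 turned to 0.0070 with that correction, with or without the block. The CPM difference of Bglap was -0.28 and became -0.54 for both copies summed (exact permutation p = 0.114). It was -0.35 to -0.23 with 1 sample left out, where the smallest exact permutation p is 0.0571. That of Phex was -0.14 and ranged from -0.25 to 0.041 with 1 sample left out, turning positive without hypoxia replicate 2.

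Counts of 0 to 22, as for Phospho1, Phex, Bglap and Bglap2, limit these genes to large differences in CPM. Levels in hypoxia replicate 1 carry less counting error than those in the other 7 samples.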
